A study of Mus musculus with 12 samples.

Results

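The Hox cluster genes encode homeodomain transcription factors and lie in 4 chromosomal clusters, Hoxa on chromosome 6, Hoxb on chromosome 11, Hoxc on chromosome 15 and Hoxd on chromosome 2 of the mouse. Members were taken by symbol, as every gene named Hoxa, Hoxb, Hoxc or Hoxd followed by digits alone that had an array probe set of its own. This gave 33 genes with 48 probe sets, of 18193 genes and 45101 probe sets in all. Hox genes that no probe set named alone were not analysed here. Of the 33 genes, 22 had 1 probe set and 11 had several, and a gene with several was represented by the one with the highest mean over all arrays.

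Testes of mouse embryos were profiled on 12 Affymetrix arrays in 4 groups of 3, namely wild type 129Sv, Dmrt1 knockout 129Sv, wild type B6 and Dmrt1 knockout B6, where 129Sv and B6 are inbred mouse backgrounds. Dmrt1 encodes a DM-domain transcription factor of germ cells and Sertoli cells in the testis. All groups were labelled E15.5, an embryonic day, and none was labelled with a treatment, although the growth protocol names postnatal day 28. By the series text Dmrt1 was removed conditionally while the samples are labelled knockout, and the sources used here name neither a Cre driver nor the deleted part of the gene. The labels do not say whether the 3 arrays of a group came from separate animals, so p-values measure the spread between these arrays, which may be technical in part.

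Dmrt1 itself read 1183, 924 and 1014 (intensity) on the 129Sv wild type arrays and 173, 145 and 181 on the 129Sv knockout arrays. In B6 it read 795, 1092 and 1066 in wild type and 86.4, 64.0 and 72.9 in knockout, so the arrays followed their labels in both strains. The position of its probe set relative to the deleted part was not determined here. As markers of testis, all 10 listed Sertoli cell genes and all 7 germ cell genes with a probe set, of 9 listed, were above the filter on low values. Median intensities lay between 17.3 and 19.0 on all arrays. The Actb ratio, which sets the 3′ probe set of that gene over its 5′ one as a sign of RNA integrity, was 6.30 on B6 knockout replicate 3, 5.24 on 129Sv knockout replicate 1 and 3.91 on 129Sv wild type replicate 2, against 1.99 to 2.79 on the others. The last number of the array titles ran from 1 to 6 in B6 and from 7 to 12 in 129Sv. If it marks an order of handling, that order cannot be told apart from strain. Another number, which stands before the strain in the titles, was 7 on all 129Sv knockout arrays and 129Sv wild type replicate 2, 11 on the other 129Sv wild type arrays and 10 on the B6 arrays that carry one, so in 129Sv it was partly confounded with genotype. The B6 wild type and knockout titles of replicate 1 share a further number, as do those of replicate 2. Otherwise that further number differed from array to array. B6 wild type replicate 3 had neither it nor the number before the strain. What these numbers mean is not stated in the labels.

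Hox proteins bind DNA through the homeodomain, often together with cofactors of the TALE class (Pbx, Meis and Pknox), and give cells their position along the head-to-tail axis and along limbs and ducts. Genes at the same position in different clusters are paralogs and are numbered alike, with low numbers at the end of a cluster that is switched on early and in the hindbrain and neck, and high numbers at the end that is switched on late and in the tail, limbs and genital tract. Polycomb proteins keep clusters silent, Trithorax proteins keep them active, and retinoic acid and Cdx factors act on their early activation. In the urogenital system the posterior genes pattern the ducts, and Hoxa10 and Hoxa11 are known from testis descent and uterus development.

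The clusters are rich in CG dinucleotides, the sites of DNA methylation and of Polycomb recruitment, and the windows of 250 bases before the starts of 5 genes called in a comparison are shown for this reason. Hoxd8 was also called but is not shown, and its window held 6 CG. Hoxb3, Hoxb5, Hoxb9, Hoxc5 and Hoxc10 were called too but had no such window. Hoxa5, Hoxc4 and Hoxd9 were lower in 129Sv than in B6, Hoxd1 was higher in 129Sv, and Hoxa3 was called for the knockout in 129Sv and was also lower in 129Sv within the knockout. The windows of Hoxa3, Hoxa5, Hoxd9 and Hoxd1 abut the annotated start of the gene, whereas that of Hoxc4 precedes an internal start within its annotated span, chr15:103018097-103036856. Sequences are from RefSeq on GRCm38.p6, 5′ to 3′ on the strand of the gene, with each CG in capitals.
Hoxa3, chr6:52213068-52213317, minus strand: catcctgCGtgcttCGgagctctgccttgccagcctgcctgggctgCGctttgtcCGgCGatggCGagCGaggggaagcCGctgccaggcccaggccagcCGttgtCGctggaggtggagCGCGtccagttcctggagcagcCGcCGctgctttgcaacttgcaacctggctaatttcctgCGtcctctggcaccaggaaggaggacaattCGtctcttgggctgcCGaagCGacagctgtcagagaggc
Hoxa5, chr6:52204588-52204837, minus strand: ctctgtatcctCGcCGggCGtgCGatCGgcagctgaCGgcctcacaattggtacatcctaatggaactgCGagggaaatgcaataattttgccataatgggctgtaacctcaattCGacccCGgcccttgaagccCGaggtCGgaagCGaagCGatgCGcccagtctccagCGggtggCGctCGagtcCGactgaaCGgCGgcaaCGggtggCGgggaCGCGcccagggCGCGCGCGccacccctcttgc
Hoxc4, chr15:103034145-103034394, plus strand: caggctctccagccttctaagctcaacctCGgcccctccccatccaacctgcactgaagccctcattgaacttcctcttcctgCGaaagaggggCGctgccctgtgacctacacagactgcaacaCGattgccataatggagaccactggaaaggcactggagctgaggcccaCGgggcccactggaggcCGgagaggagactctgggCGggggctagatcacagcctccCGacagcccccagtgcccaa
Hoxd9, chr2:74697513-74697762, plus strand: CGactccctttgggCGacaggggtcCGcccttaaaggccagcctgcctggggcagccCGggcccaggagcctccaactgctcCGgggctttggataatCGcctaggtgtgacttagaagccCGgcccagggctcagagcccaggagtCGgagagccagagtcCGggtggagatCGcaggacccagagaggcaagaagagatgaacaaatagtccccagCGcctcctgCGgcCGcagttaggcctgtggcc
Hoxd1, chr2:74762730-74762979, plus strand: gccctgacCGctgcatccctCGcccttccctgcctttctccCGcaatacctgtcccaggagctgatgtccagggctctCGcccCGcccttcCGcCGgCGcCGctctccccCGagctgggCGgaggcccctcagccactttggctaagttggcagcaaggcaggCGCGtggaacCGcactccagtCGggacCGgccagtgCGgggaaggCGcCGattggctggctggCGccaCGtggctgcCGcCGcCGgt

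The windows held 18 CG for Hoxa3, 28 for Hoxa5, 8 for Hoxc4, 13 for Hoxd9 and 24 for Hoxd1. The RefSeq table matched 19 of the 33 genes with 21 such windows, whose median was 13 CG, against 6 over 32851 windows of all genes. Their median GC content was 59.2%, against 52.4%. Among motifs searched on both strands, CCAAT was in 52.4% of the Hox windows and 33.8% of all windows, TATAAA in 9.52% and 12.4%, the Pbx-Hox site TGATTNAT in 9.52% and 2.82%, and the Meis core TGACAG in 9.52% and 15.9%. The core ACATTGT of the DMRT1 site was in none of the Hox windows and in 2.56% of all windows, which says only that these letters were not in these 250 bases.

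An intensity of 16, which is 4 on the log2 scale, was taken as the floor below which values carry little signal. By this floor 15 of the 33 Hox genes were above background on all 12 arrays and 11 on none. Hoxa7 and Hoxb13 reached it on 2 arrays each, with ranges of 11.2 to 19.4 and 8.31 to 18.2. The 20 genes that reached it on at least 3 arrays entered the tests, which were run over 12726 genes. They were 4 of 9 Hoxa genes (Hoxa3, Hoxa5, Hoxa9 and Hoxa10), 4 of 9 Hoxb genes (Hoxb3, Hoxb4, Hoxb5 and Hoxb9), 6 of 7 Hoxc genes (all but Hoxc13) and 6 of 8 Hoxd genes (all but Hoxd12 and Hoxd13). A value below the floor can come from a probe set that binds poorly as well as from a low transcript level.

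**Figure D1:**
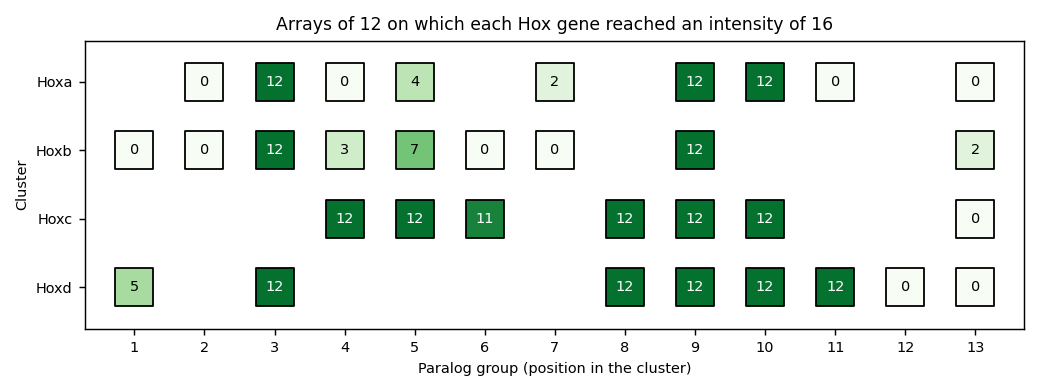
Number of arrays, of 12, on which each of the 33 Hox genes reached an intensity of 16, by paralog group (horizontal axis) and cluster (vertical axis); an empty position has no gene or no probe set of its own. The paralog groups 3, 8, 9 and 10 stand at 12 arrays in every cluster shown there, while no gene of group 13 exceeds 2 arrays.

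Above-background signal was not graded along the clusters. Of the anterior genes, paralog groups 1 to 4, 6 of 10 were tested, of the central genes, groups 5 to 8, 6 of 9, and of the posterior genes, groups 9 to 13, 8 of 14. The posterior part divided in itself. All 4 genes of group 9 and all 3 of group 10 were above the floor on all 12 arrays, as was Hoxd11. Hoxa11 was never above it, Hoxd12 lay between 5.24 and 7.46, and of the 4 group 13 genes, which pattern digits and the terminal genital tract, Hoxa13 ranged from 4.50 to 5.79, Hoxd13 from 4.11 to 5.49 and Hoxc13 from 3.15 to 8.89. The anterior group 3 genes Hoxa3, Hoxb3 and Hoxd3 were above the floor on all arrays, while the hindbrain genes Hoxa2, Hoxb1 and Hoxb2 were above it on none.

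Of the 20 tested genes, 5 did not reach the floor on every array. Hoxa5 reached it on 4 arrays, all of them B6, Hoxb5 on 7, of which 2 were 129Sv, Hoxb4 on 3, Hoxc6 on 11 and Hoxd1 on 5, of which 4 were 129Sv. Hoxa5, Hoxb5 and Hoxd1 thus entered the tests largely through the strain in which they were high. Hoxb4 entered through wild type arrays alone. Counts of calls are therefore also given over the 15 genes above the floor on all arrays.

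**Figure D2:**
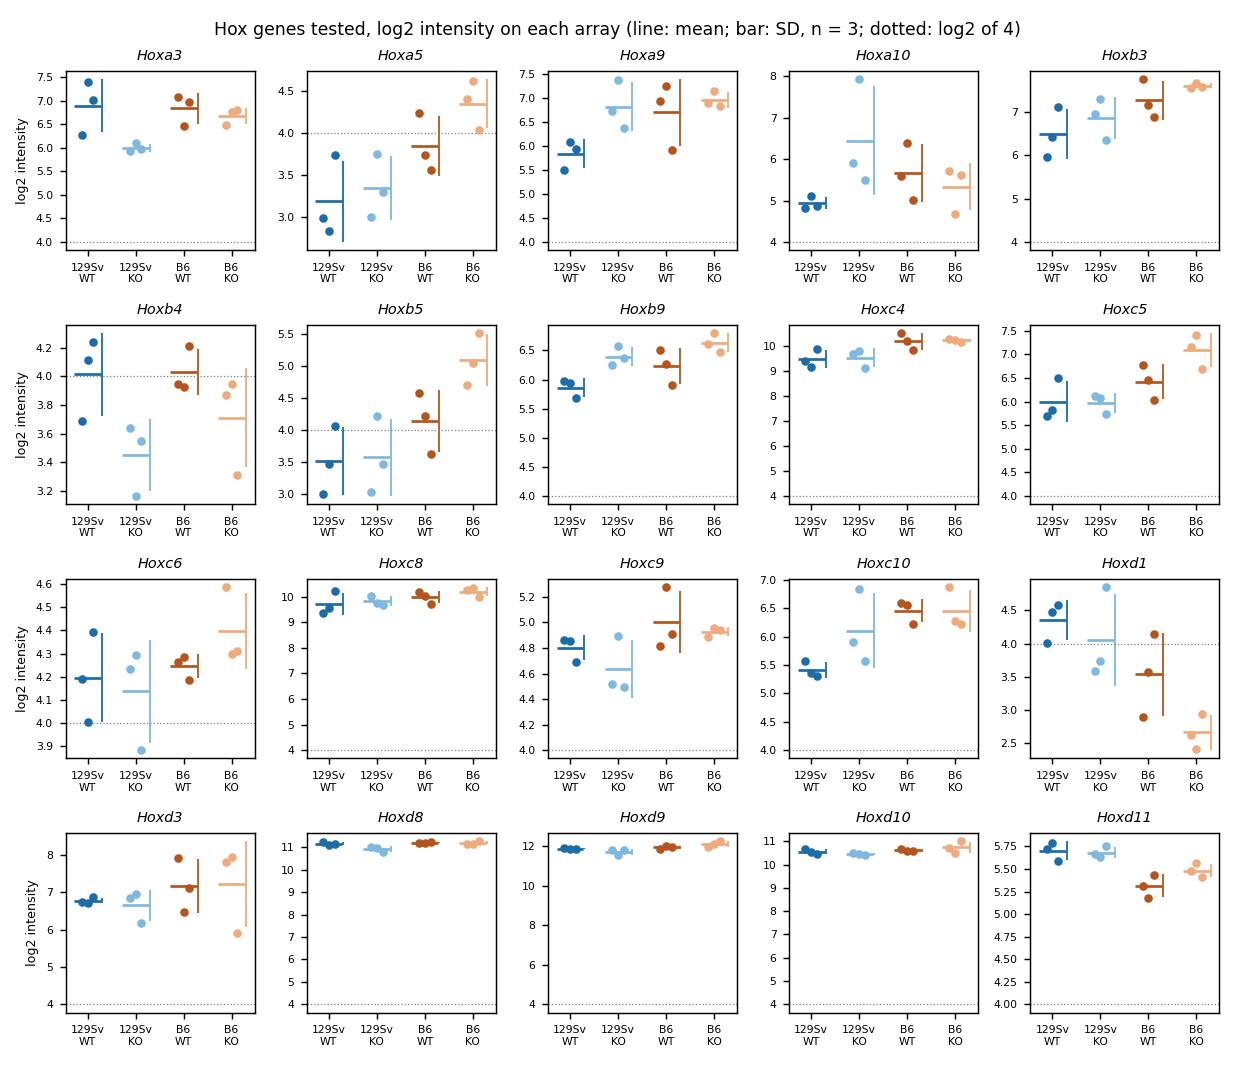
Log2 intensity of the 20 tested Hox genes on each of the 12 arrays (points), by group (WT, wild type; KO, Dmrt1 knockout), with the group mean (line) and SD (bar, n = 3); each panel has its own vertical scale and the dotted line marks log2 of 4. Hoxb5 and Hoxc5 sit higher on the B6 knockout arrays than on any 129Sv knockout array, Hoxd1 sits lower, and Hoxa10 has 1 high array of 245 in the 129Sv knockout group.

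The strains were compared first within wild type, 129Sv minus B6. Hoxc10, a posterior gene known from hindlimb and lumbar patterning, and Hoxc4, an anterior gene of the other end of the same cluster, were lower in 129Sv. They were 2 of the 20 tested Hox genes (10%), or 2 of the 15 above the floor on all arrays, and no Hox gene was called higher. Over all 12726 genes, 5.19% were called lower and 10.9% higher, 16.1% in either direction, by limma with Benjamini-Hochberg adjustment over all tested genes at 0.05. In whole testes, fewer cells of a type and less RNA per cell cannot be told apart.

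Hoxc10 read 47.5, 41.0 and 39.4 on the 129Sv wild type arrays and 96.5, 94.4 and 75.0 on the B6 wild type arrays. Every B6 array was above every 129Sv array. The log2 difference was -1.05 ± 0.28 (SE), or 2.07-fold, with an adjusted p of 0.0208 by limma.

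Hoxc4 read 675, 567 and 935 on the 129Sv wild type arrays and 1446, 1171 and 902 on the B6 wild type arrays. The groups overlapped, since 129Sv replicate 3 was above B6 replicate 3. The log2 difference was -0.70 ± 0.21 (SE), or 1.62-fold, with an adjusted p of 0.0355 by limma. Both calls rested on few arrays. By limma, Hoxc10 had adjusted p-values of 0.0693 to 0.0775 without 129Sv wild type replicate 2 or 3 or without B6 wild type replicate 1 or 2. Hoxc4 had 0.0934 to 0.167 without 129Sv wild type replicate 1 or 2 or without B6 wild type replicate 1 or 2.

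Among those that missed the threshold, the differences next in rank of evidence were Hoxa9, an Abd-B type gene of the posterior trunk, at -0.86 ± 0.32 on the log2 scale (limma, adjusted p = 0.0762), and Hoxb3 at -0.78 ± 0.30 (adjusted p = 0.0897). Hoxa9 read 45.1, 68.0 and 61.6 in 129Sv and 123, 153 and 60.4 in B6, where B6 replicate 3 lay within the 129Sv range. Hoxd11 read 52.9, 55.5 and 48.0 in 129Sv and 39.8, 36.3 and 43.4 in B6. It had no overlap and stood the other way, at 0.39 ± 0.17, but missed the threshold (limma, adjusted p = 0.131). Hoxc10 and Hoxd11 were the 2 of 20 genes (10%) whose wild type arrays did not overlap between strains, 1 in each direction, against 40.7% of all tested genes, 26.6% higher and 14.1% lower in 129Sv.

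Within the knockout the strain comparison called 8 of the 20 Hox genes. Hoxb5, Hoxc5, Hoxd9, Hoxa5, Hoxc4, Hoxd8 and Hoxa3 were lower in 129Sv and Hoxd1 was higher. The 7 lower genes made up 35%, against 13.8% of all tested genes called lower, while the 1 higher gene made up 5%, against 20.3%. The 7 include Hoxa5 and Hoxb5, which entered the tests largely through B6. The 35% thus rests in part on the filter and is not read as an excess. In either direction the share was 40%, near the 34.1% of all tested genes. Among the 15 genes above the floor on all arrays, 5 were called (33.3%), Hoxc5, Hoxd9, Hoxc4, Hoxd8 and Hoxa3, all lower. The share called lower among all genes above the floor on all arrays was not computed. The median log2 difference was -0.35 over these 15 genes and 0.03 over all tested genes.

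**Figure D3:**
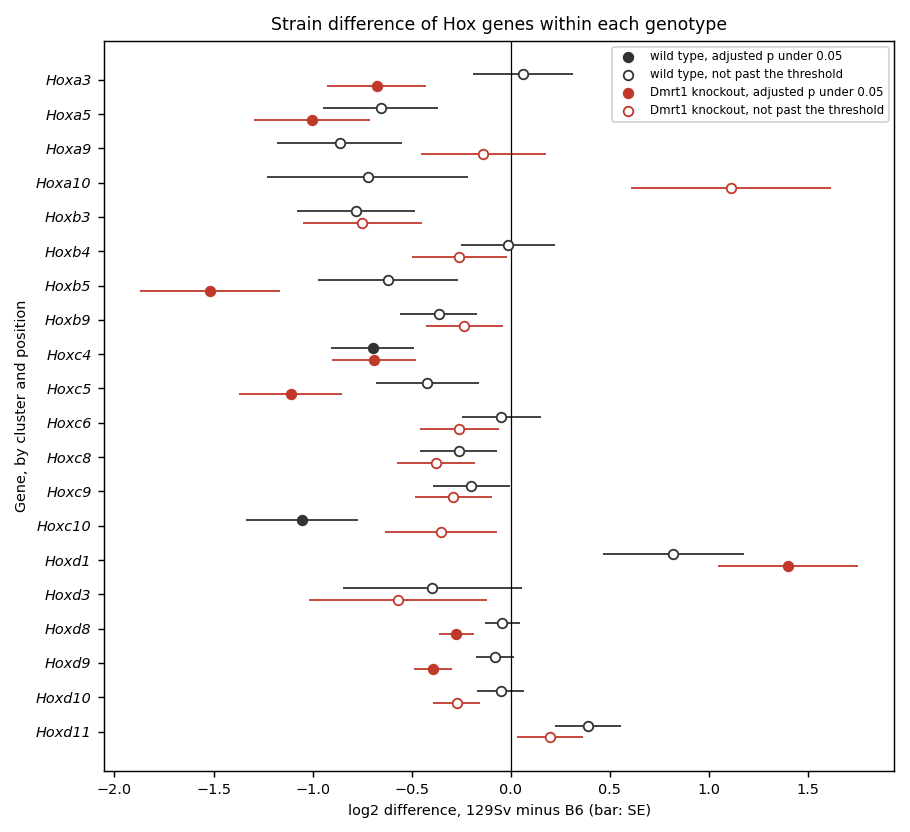
Log2 difference, 129Sv minus B6, of each of the 20 tested Hox genes within wild type (dark) and within Dmrt1 knockout (red), with its standard error (bars, from the fit to all 12 arrays); filled points passed an adjusted p of 0.05. In each genotype 17 of the 20 differences lie below 0, with Hoxd1 and Hoxd11 above 0 in both.

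Hoxc5 was the called gene of paralog group 5 that was above the floor on all arrays. Its paralogs Hoxa5 and Hoxb5 were also called, but entered the test largely through B6, where they were high, so the 3 calls are not given as a shared pattern. Group 5 genes are known for patterning the cervical and thoracic levels, and Hoxa5 for lung development. Hoxb5 read 8.08, 11.1 and 16.9 in 129Sv wild type, 8.18, 18.7 and 11.1 in 129Sv knockout, 23.9, 18.6 and 12.3 in B6 wild type and 26.1, 33.3 and 45.8 in B6 knockout. All B6 knockout arrays were above all 129Sv arrays of either genotype. Its knockout strain difference was -1.52 ± 0.35 on the log2 scale (limma, adjusted p = 0.00452). Against the floor of 16 this is at least 2.13-fold, since the 129Sv mean lay below the floor.

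Hoxc5 read 69.7, 67.8 and 53.3 in 129Sv knockout and 143, 171 and 104 in B6 knockout, with no overlap. The difference was -1.11 ± 0.26 on the log2 scale, or 2.16-fold (limma, adjusted p = 0.00463). In wild type it read 51.5, 56.6 and 90.4 in 129Sv and 109, 88.1 and 65.7 in B6, which overlapped, and the difference of -0.42 ± 0.26 missed the threshold (limma, adjusted p = 0.294).

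Hoxa5 read 7.99, 13.5 and 9.83 in 129Sv knockout, all below the floor, and 21.1, 24.6 and 16.4 in B6 knockout, all above it. Its difference was -1.0 ± 0.29 on the log2 scale, at least 1.28-fold (limma, adjusted p = 0.0158). Without 129Sv knockout replicate 1 or B6 knockout replicate 2 the adjusted p was 0.0647 and 0.0611, and with values below the floor set to it, 0.0896.

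Hoxd9 and Hoxd8, neighbours in the Hoxd cluster, differed by little but with a narrow spread. Hoxd9, one of the group 9 genes of the posterior trunk and limbs, read 3561, 2950 and 3544 in 129Sv knockout and 3976, 4358 and 4861 in B6 knockout. The difference was -0.39 ± 0.10 on the log2 scale, or 1.31-fold (limma, adjusted p = 0.00628). Hoxd8 read 2092, 1975 and 1786 in 129Sv knockout, and 2301, 2298.5 and 2468 in B6 knockout. It differed by -0.27 ± 0.09, or 1.21-fold (limma, adjusted p = 0.0291). Neither gene's arrays overlapped. The Hoxd8 call was lost without 129Sv knockout replicate 3 (adjusted p = 0.129), B6 knockout replicate 2 (0.0534) or B6 knockout replicate 3 (0.0759) by limma.

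Hoxc4 was again lower in 129Sv, at 821, 890 and 554 in knockout, against 1238, 1197 and 1145 in B6 knockout, with no overlap. The difference of -0.69 ± 0.21, or 1.61-fold (limma, adjusted p = 0.0209), was lost without 129Sv knockout replicate 3 (adjusted p = 0.109). Hoxa3, a gene of thymus, parathyroid and throat development, read 60.8, 68.6 and 62.8 in 129Sv knockout and 89.3, 108 and 111 in B6 knockout, with no overlap. Its difference was -0.68 ± 0.25, or 1.60-fold, just past the threshold (limma, adjusted p = 0.0495). It was lost in 8 of the 12 fits that left out 1 array, namely any 129Sv knockout array, 129Sv wild type replicate 3, B6 wild type replicate 1 or 3, or B6 knockout replicate 2 or 3 (adjusted p = 0.0541 to 0.114 by limma). It was also lost under 8 of the other alternatives, with adjusted p-values of 0.0503 to 0.178 by limma. The second tested probe set of Hoxa3 gave -0.21 (adjusted p = 0.506 by limma, over all probe sets). In that fit the representing probe set had an adjusted p of 0.0582 by limma.

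Hoxd1, the anterior end of the Hoxd cluster and known from sensory neurons, was the 1 gene called the other way. It read 16.1, 22.2 and 24.0 in 129Sv wild type, 11.9, 13.3 and 28.9 in 129Sv knockout, 7.42, 11.9 and 17.7 in B6 wild type and 6.15, 5.30 and 7.68 in B6 knockout. All B6 knockout arrays were below all arrays of the other groups except B6 wild type replicate 1. The knockout strain difference was 1.40 ± 0.35 on the log2 scale (limma, adjusted p = 0.00758), but at least 1.04-fold against the floor. With values below the floor set to it, the difference was 0.28 and the adjusted p 0.332. Arrays did not overlap between the strains in knockout for 12 of the 20 Hox genes (60%), against 43.8% of all tested genes. Of these 12 genes 10 were lower in 129Sv and 2 higher, where 18.8% of all tested genes were lower without overlap and 25% higher. The 12 include Hoxa5, Hoxb5 and Hoxd1, which entered the tests largely through the strain in which they were high. The 60% thus rests in part on the filter and is not read as an excess.

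The wild type and the knockout strain comparisons share no arrays. The differences were below 0 in both for 16 of the 20 genes, above 0 in both for Hoxd11 and Hoxd1, and of opposite sign for Hoxa10 and Hoxa3. The 16 include Hoxa5 and Hoxb5, which entered the tests largely through B6. The share of all tested genes below 0 in both was not computed. Of the 15 genes above the floor on all arrays, 13 were below 0 in each genotype, with medians of -0.36 in wild type and -0.35 in knockout. Over all tested genes the medians were 0.06 and 0.03. By cluster, all 4 tested Hoxb and all 6 tested Hoxc genes were below 0 in both genotypes, counts that include Hoxb4, Hoxb5 and Hoxc6, which were not above the floor on all arrays. That a gene passed in one genotype and not in the other does not show that its strain difference depended on genotype. The test of that difference called no Hox gene.

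**Figure D4:**
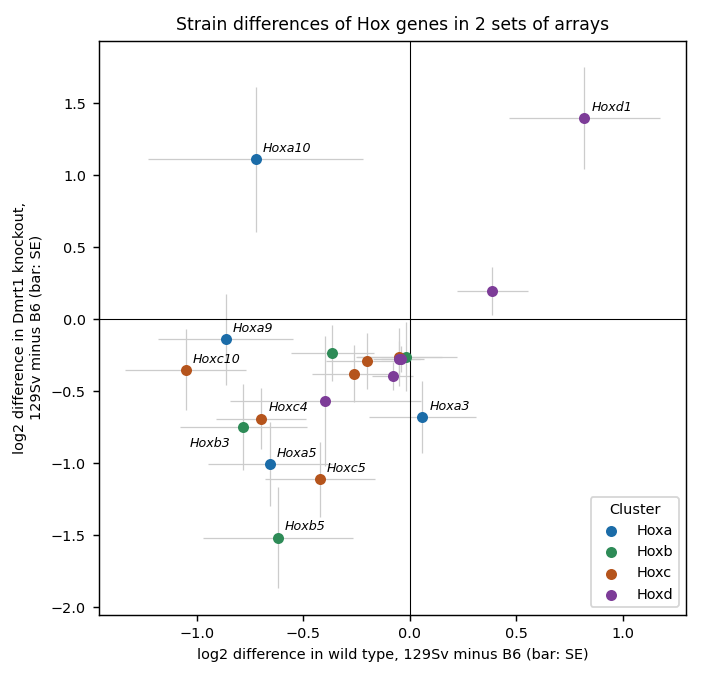
Log2 strain difference, 129Sv minus B6, of the 20 tested Hox genes in wild type (horizontal axis) against that in Dmrt1 knockout (vertical axis), which use different arrays, coloured by cluster, with standard errors as grey bars. The lower left quadrant holds 16 genes, among them Hoxa5, Hoxb5, Hoxc5, Hoxc4, Hoxb3 and Hoxc10, while Hoxd1 stands in the upper right and Hoxa10 in the upper left.

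The average of both strain differences was added after the data were seen. By it 8 Hox genes were called, Hoxc4, Hoxb5, Hoxc5, Hoxa5, Hoxb3, Hoxc10 and Hoxd9 lower in 129Sv and Hoxd1 higher. The 7 lower genes made up 35%, against 15.1% of all tested genes called lower, the 1 higher gene 5%, against 24.6%, and both together 40%, against 39.7%. The 7 include Hoxa5 and Hoxb5, which entered the tests largely through B6, so the 35% is not read as an excess. Among the 15 genes above the floor on all arrays, 5 were called, all lower. The share called lower among all genes above the floor on all arrays was not computed. Hoxc4 had the smallest adjusted p, at -0.69 ± 0.15 on the log2 scale (limma, adjusted p = 0.00198). Hoxb5 had the largest difference among the lower genes, at -1.07 ± 0.25 (limma, adjusted p = 0.00346), with both 129Sv group means below the floor. Hoxb3 read 62.2, 85.7 and 138 in 129Sv wild type, 124, 157 and 81.3 in 129Sv knockout, 219, 144 and 119 in B6 wild type and 189, 205 and 193 in B6 knockout. It was called here alone, at -0.76 ± 0.21 (limma, adjusted p = 0.0101). Each of the 8 genes remained called in every fit that left out 1 array. With values below the floor set to it, Hoxa5 (-0.22, adjusted p = 0.125) and Hoxd1 (0.30, adjusted p = 0.138) were not called by limma.

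Where a gene had several probe sets, the strain difference could be read again from other probes of the same transcripts. All values here are the average over genotypes from a limma fit to every probe set. The second probe set of Hoxa5 gave -0.94 (adjusted p = 0.00392), beside -0.83 for the one that represents it. This second probe set reached the floor on 3 arrays. Its group mean was above the floor in B6 knockout alone (21.7), against 8.86 in 129Sv wild type and 9.49 in 129Sv knockout. Like the representing one, it thus entered the test largely through B6, where it was high, and its call is not read as separate support. For Hoxc5 a second gave -0.58 (adjusted p = 0.0352) and the last, below the floor on all arrays, -0.15. The 3 probe sets of Hoxc6 disagreed on the call, at -0.15 for the representing one (adjusted p = 0.396), -0.44 (adjusted p = 0.0249) and -0.38 (adjusted p = 0.0926). The called one reached the floor on 5 arrays. Its means were 14.3 in 129Sv wild type and 14.9 in 129Sv knockout, against 17.7 and 22.2 in B6, so its call has the same limit. Those of Hoxd8 disagreed likewise, at -0.16 (adjusted p = 0.0613) and -0.32 (adjusted p = 0.0024).

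Marker genes of other cell types moved with strain as well. Germ cell markers had mean log2 intensities of 10.34 to 10.66 on the 129Sv arrays and 9.59 to 10.29 on the B6 arrays, with 5 of 7 called higher in 129Sv and 1 lower for the average over genotypes. Their summed intensity was 17305 to 17639 in 129Sv wild type and 13354 to 15111 in B6 wild type, and 17681 to 21771 in 129Sv knockout and 8431 to 13060 in B6 knockout. Sertoli cell markers were called lower in 129Sv for 4 of 10, fetal Leydig cell markers for 3 of 6 with 1 higher, interstitial and peritubular markers for 3 of 10 with 1 higher, endothelial markers for 4 of 7 and macrophage markers for 3 of 7. Neuron and skeletal muscle markers, 3 tested of each, had 1 called in each direction. Of the mesonephric duct and tubule markers, the ducts beside the gonad in which posterior Hox genes are known to act, 4 of 8 measured were tested, Gata3, Wnt9b, Ehf and Calb1 stayed below the filter, and 1 was called higher in 129Sv, Cdh1. Over all tested genes, 24.6% were called higher and 15.1% lower in this comparison. The mean log2 intensity of the mesonephric markers was 5.33 to 5.68 in 129Sv wild type, 4.95 to 5.57 in B6 wild type, 5.59 to 5.83 in 129Sv knockout and 5.75 to 6.10 in B6 knockout. The part of these cell types in the Hox differences was not tested.

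The knockout was compared with wild type within each strain. In 129Sv, 1 Hox gene was called, Hoxa3, lower in knockout. This was 5% of the 20 genes, against 4.24% of all tested genes called lower, 4.07% called higher and 8.31% in either direction. The median log2 difference of the 20 genes was -0.02, and that of all tested genes -0.01.

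Hoxa3 read 77.6, 168 and 130 in 129Sv wild type and 60.8, 68.6 and 62.8 in 129Sv knockout. All knockout arrays were below all wild type arrays, though 129Sv wild type replicate 1 came near them. The log2 difference was -0.90 ± 0.25, or 1.86-fold (limma, adjusted p = 0.0387). It was lost without 129Sv wild type replicate 2 (adjusted p = 0.166) or 3 (0.137) and without 129Sv knockout replicate 1 (0.118), 2 (0.0858) or 3 (0.0839) by limma. On GRCm38.p6 the annotated span of Hoxa3, chr6:52169059-52213067, covers those of Hoxa4 and Hoxa5, and which of its transcripts the probe set reads was not determined here. Its second tested probe set gave -0.52 (adjusted p = 0.242 by limma, over all probe sets). In that fit the representing probe set was not called either (adjusted p = 0.0567 by limma). The second one lay near the floor, with group means of 14.3 in 129Sv knockout to 20.1 in 129Sv wild type.

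Of the 8 tested posterior genes, 4 had a difference above 0 in 129Sv and 4 below 0, and none was called. Hoxa9, Hoxa10 and Hoxb9 were higher and Hoxd9 was lower on every 129Sv knockout array than on any 129Sv wild type array. Hoxa10, needed for testis descent, read 28.5, 34.7 and 29.3 in wild type and 59.7, 245 and 45.4 in knockout. Knockout replicate 2 stood far above the other arrays, and its log2 difference was 1.51 ± 0.51 (adjusted p = 0.0849 by limma). On the same array Hoxa9 was at 166, beside 106 and 83.1 on the other 129Sv knockout arrays, Hoxc10 at 115, beside 59.7 and 47.3, and Hoxa11 at 14.9, beside 6.34 and 6.83. The Actb ratio of this array was 2.75, within the range of the majority.

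Hoxa9 read 45.1, 68.0 and 61.6 in 129Sv wild type, and its difference was 0.98 ± 0.32 (limma, adjusted p = 0.0721). Hoxb9 read 62.6, 61.5 and 51.1 in 129Sv wild type and 75.8, 94.9 and 82.7 in knockout, with a difference of 0.53 ± 0.19 (limma, adjusted p = 0.115). Without 129Sv knockout replicate 3 the limma fit called Hoxa9 and Hoxa10, and without B6 wild type replicate 3 it called Hoxa9 beside Hoxa3. Together with Hoxa3, Hoxd8, Hoxb4 and Hoxd9, which were lower, 7 of the 20 genes (35%) had no overlap between genotypes in 129Sv. Of the 7, 3 were higher and 4 lower. Over all tested genes 28.8% had no overlap, 14.2% higher and 14.6% lower. Hoxb4 reached the floor on wild type arrays alone and so entered the tests through the genotype in which it was high. The 35% thus rests in part on the filter and is not read as an excess.

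In B6 no Hox gene was called by limma, against 7.9% of all tested genes, 2.45% higher and 5.45% lower. At an unadjusted p under 0.05 there were 3, Hoxb5, Hoxc5 and Hoxd1. Hoxb5 differed by 0.95 ± 0.35 on the log2 scale (limma, adjusted p = 0.112), from 23.9, 18.6 and 12.3 in wild type to 26.1, 33.3 and 45.8 in knockout, with no overlap. The highest of these was replicate 3, the array with the Actb ratio of 6.30. Hoxc5 differed by 0.67 ± 0.26 (limma, adjusted p = 0.128) and its arrays overlapped, since knockout replicate 3 at 104 was below wild type replicate 1 at 109. Hoxd1 differed by -0.88 ± 0.35 (limma, adjusted p = 0.143), with both group means below the floor. The groups had no overlap for 2 of the 20 genes (10%), Hoxb5 and Hoxc6, against 27.7% of all tested genes. Among the alternatives, weighting the arrays by quality called 3 Hox genes in B6 and setting values below the floor to it called 1, Hoxb5.

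Some marker genes were called for the knockout too. In 129Sv, Cdh1 (2.45 ± 0.21) was higher and Pax8 (-1.88 ± 0.34) lower among the 4 tested mesonephric markers, Cst9 lower among 10 Sertoli cell markers, and 1 marker each of germ cells (Dppa3), neurons (Th) and skeletal muscle (Tnni1) higher. In B6, Cdh1 was higher (1.34 ± 0.21), Dnd1 and Mael lower among 7 germ cell markers, Cst9 and Sox8 lower and Nr0b1 higher among the Sertoli cell markers, Th and Tubb3 higher among 3 neuron markers and Myh3 lower among 3 muscle markers. No Leydig, interstitial, endothelial or macrophage marker was called by limma in either strain. Over all tested genes, 4.07% were called higher and 4.24% lower in 129Sv, and 2.45% higher and 5.45% lower in B6. With 3 to 10 tested genes a list, these counts are not read as a shift of a cell type. The summed intensity of the mesonephric markers was 453 to 585 in 129Sv wild type and 1932 to 2449 in 129Sv knockout, and 347 to 653 in B6 wild type and 1051 to 1156 in B6 knockout. A sum weighs its brightest genes most. The mean log2 intensity of the 4 tested mesonephric markers was 5.33 to 5.68 in 129Sv wild type and 5.59 to 5.83 in 129Sv knockout. In B6 it was 4.95 to 5.57 in wild type and 5.75 to 6.10 in knockout. The part of these cell types in the Hox values was not tested.

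**Figure D5:**
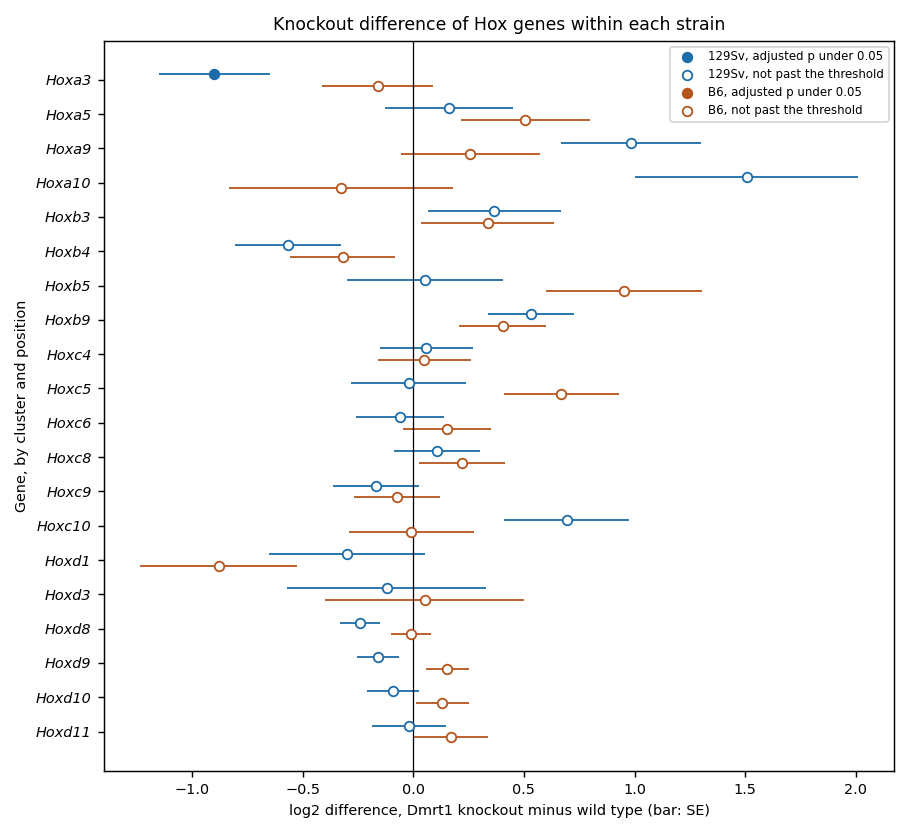
Log2 difference, Dmrt1 knockout minus wild type, of each of the 20 tested Hox genes in 129Sv (blue) and B6 (orange), with its standard error (bars, from the fit to all 12 arrays); the filled point, Hoxa3 in 129Sv, passed an adjusted p of 0.05. The 2 strains' values are of opposite sign for 8 genes, and the widest gap is that of Hoxa10, at 1.51 in 129Sv and -0.33 in B6.

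The knockout effects in 129Sv and B6, which share no arrays, were below 0 in both for 5 genes, above 0 in both for 7 and of opposite sign for 8. The difference between them was tested for every gene and called no Hox gene by limma, against 1.31% of all tested genes, 1.12% higher and 0.196% lower. At an unadjusted p under 0.05 there were 2, Hoxa10 at 1.83 ± 0.71 on the log2 scale (adjusted p = 0.222) and Hoxd9 at -0.31 ± 0.14 (adjusted p = 0.272). The Hoxa3 effect, called in 129Sv and at -0.16 ± 0.25 in B6, did not differ between strains past the threshold, at -0.74 ± 0.36 (limma, adjusted p = 0.322).

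Averaged over the strains, Hoxb9, the group 9 gene of the Hoxb cluster that acts in thoracic patterning, was higher in knockout. It was 1 of the 20 genes (5%), against 5.62% of all tested genes called higher and 13.5% in either direction. Hoxb9 read 91.5, 76.8 and 59.7 in B6 wild type and 97.7, 111 and 89.1 in B6 knockout, which overlapped, since wild type replicate 1 was above knockout replicate 3. In 129Sv the arrays did not overlap, as given above. The averaged difference was 0.47 ± 0.14 on the log2 scale (limma, adjusted p = 0.0346). The call was lost (0.43, adjusted p = 0.188 by limma) when the number that stands before the strain in the titles entered the model, and Hoxa3 was then the 1 gene called. It was kept in 4 of the 12 fits that left out 1 array. It was lost without 129Sv wild type replicate 1 or 3, 129Sv knockout replicate 2 or 3, B6 wild type replicate 2 or 3, or B6 knockout replicate 1 or 2, with adjusted p-values of 0.054 to 0.102 by limma.

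Several genes varied little or varied within groups more than between them. Hoxc8 and Hoxc9, the central and posterior neighbours of Hoxc6 and Hoxc10, ranged from 659 to 1286 and from 22.5 to 38.7 and passed no test. Hoxd10, a gene of the hindlimb and its motor neurons, was at 1507 ± 110 (SD, n = 3) in 129Sv wild type, 1413 ± 40.8 in 129Sv knockout, 1559 ± 59.1 in B6 wild type and 1723 ± 300 in B6 knockout. The wide spread of the last came from replicate 3 at 2050. Hoxd3, an axial gene whose annotated span covers that of Hoxd4, read 245, 89.2 and 139 in B6 wild type and 225, 249 and 60.2 in B6 knockout, and 72.9 to 124 on all 129Sv arrays. Its B6 replicates spread more widely within each genotype than its group means did between groups.

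The genes around and upstream of the Hox clusters were read from lists. Of the TALE cofactors, 8 of 9 were tested and none was called for the knockout within either strain, while the average over strains called Pbx2 lower (-0.25 ± 0.07, limma, adjusted p = 0.018). This was 12.5% of the list, against 7.88% of all tested genes called lower. Averaged over genotypes, Meis2 (-0.35 ± 0.10) and Pbx3 (-0.37 ± 0.10) were lower in 129Sv, 25% against 15.1% of all tested genes, and Pbx2 was higher (0.24 ± 0.07), 12.5% against 24.6%. Meis2, which binds DNA together with Hox and Pbx proteins, read 883, 846 and 1087 in 129Sv wild type and 1409, 1435 and 1109 in B6 wild type, with no overlap, and was called there (-0.49 ± 0.14, limma, adjusted p = 0.0256).

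Of the regulators of Hox clusters, 13 of 17 were tested, and Cdx1, Cdx2, Cdx4 and Gdf11 stayed below the filter. None was called for the knockout. In the knockout 6 were higher in 129Sv and none lower, 46.2%, against 20.3% of all tested genes called higher. They were Bmi1, Cbx2 and Phc1, of Polycomb complex 1, Eed and Jarid2, of Polycomb complex 2, and Kdm6a, a demethylase of the Polycomb mark. Phc1 had the largest difference, 0.70 ± 0.17 on the log2 scale (limma, adjusted p = 0.00633). In wild type 1 was called, Eed, at 0.55 ± 0.14 (limma, adjusted p = 0.0127), which was 7.69%, against 10.9% of all tested genes called higher. Whether these genes bear on the Hox differences was not tested.

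Of the genes that flank the clusters or are transcribed within them, 8 of 14 were tested. Evx1 and Evx2, homeobox genes at the posterior ends of Hoxa and Hoxd, stayed below the filter, with Evx1 at 5.18 to 12.4 and Evx2 at 4.17 to 5.26. In 129Sv 3 were higher in knockout (37.5%, against 4.07% of all tested genes), Lnpk beside Hoxd (0.59 ± 0.15, limma, adjusted p = 0.0188), Snx10 near Hoxa (0.43 ± 0.12, adjusted p = 0.0485) and Skap1 beside Hoxb. Lnpk read 260, 249 and 259 in 129Sv wild type and 327, 438 and 403 in 129Sv knockout, against 350, 337 and 361 in B6 wild type and 285, 247 and 304 in B6 knockout. Its knockout effect differed between the strains by 0.93 ± 0.21 (limma, adjusted p = 0.0446), while no Hoxd gene was called in that comparison. Skap1 read 16.6, 25.7 and 38.3 in 129Sv knockout and at most 11.9 on all other arrays, so it passed the filter through that group alone and its call supports nothing. The 37.5% above counts Skap1 among both the 3 called and the 8 tested, so it is not read as an excess over 4.07%. Between the strains within knockout, 5 of the 8 were called higher in 129Sv and none lower (62.5%, against 20.3% of all tested genes called higher). Within wild type 1 was called in each direction. Skap1 is among the 8 here as well, so the 62.5% is not read as an excess either.

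Of the other homeobox genes of the fetal gonad, 5 of 10 were tested. For the knockout, 2 of the 5 were called higher in 129Sv (40%, against 4.07% of all tested genes) and 1 in B6 (20%, against 2.45%). Six4, which acts in gonad growth, rose in the knockout in 129Sv (1.27 ± 0.20, limma, adjusted p = 0.000962) and in B6 (0.71 ± 0.20, adjusted p = 0.0453). Tgif1, a TALE homeobox repressor, rose in 129Sv (0.85 ± 0.15, limma, adjusted p = 0.00214), and its effect differed between strains by 0.95 ± 0.21 (adjusted p = 0.0446). Of the retinoic acid genes, 13 of 17 were tested. In 129Sv Crabp2, a retinoic acid carrier, was higher in knockout by 2.91 ± 0.24 on the log2 scale (limma, adjusted p = 2.86e-06) and the receptor Rarg by 0.82 ± 0.19, while the receptor Rxra was lower (-0.55 ± 0.13). Of the 13 genes, 15.4% were thus called higher and 7.69% lower in 129Sv, against 4.07% and 4.24% of all tested genes. In B6, Rxrb alone was called (0.63 ± 0.18, limma, adjusted p = 0.0452). This was 7.69%, near the 7.9% of all tested genes called in either direction. Crabp2 read 2178, 1829 and 2521 in 129Sv knockout and at most 808 on all other arrays. Between the strains, averaged over genotypes, 4 of these genes were higher in 129Sv (30.8%, against 24.6% of all tested genes), among them Cyp26b1, which degrades retinoic acid (0.66 ± 0.12), and 3 were lower (23.1%, against 15.1%), among them Stra6, the retinol transporter (-1.41 ± 0.19), and Aldh1a3, a synthesis enzyme (-1.33 ± 0.31).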

How the data were processed

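RNA of 12 testis samples was hybridised to Affymetrix arrays. The deposited values are intensities on a linear scale made by the authors with GCRMA, 1 per probe set and array, per the submitters' processing notes, and no version is named in the sources used here. GCRMA adjusts background by probe sequence, so low values are compressed. The number of arrays, 3 per group, limits the precision. Log2 was taken here. Names of probe sets came from the platform annotation; 34958 had 1 gene, 932 several and 9211 none, and 13 control probe sets with a gene name were left out. A gene was tested where its log2 value was at least 4 on at least 3 arrays. In R 4.3.3, limma 3.58.1 fitted the 4 group means over the 12 arrays at once (lmFit, eBayes with trend, 8 residual degrees of freedom), with Benjamini-Hochberg adjustment over 12726 genes and a threshold of 0.05. Errors of log2 differences are standard errors. A fold against a group mean below the floor was computed against it and is written as at least.

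Groups came from the sample descriptions. Every Hox gene could be named. For a called gene, array values are given for a comparison that called it. They are also given for the 4 genes with the strongest evidence in each knockout comparison and in the wild type strain comparison. Other genes came from 5 pathway and 9 marker lists. The members and the lists were chosen with earlier results of these data known. Alternatives covered the filter, probe sets, normalization, floor, variance trend, array weights, blocks, covariates and leaving out each array. The fit was checked on simulated data. Same-numbered replicates deviated together with correlations of -0.466 to 0.0691, so the numbers were not taken to pair samples.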

Additional observations from a re-analysis of the deposited data

Results flagged for a closer look

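A signal appeared in a probe set that the comparisons did not use, because it is shared by Hoxd4 and Hoxd3. Its mean intensity was 1.69 times as high in B6 knockout as in B6 wild type, at 19.2 ± 2.05 (SD, n = 3) against 11.4 ± 2.47, and the arrays did not overlap (17.5 to 21.5 against 9.53 to 14.2). In 129Sv it was 11.0 ± 2.37 in knockout and 12.1 ± 1.65 in wild type. It reached an intensity of 16 only on the 3 B6 knockout arrays. The difference was not tested, and which of both genes it reads cannot be told.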

How the results depend on the processing

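No called Hox gene changed direction under any alternative. Of the 20 tested genes, the knockout in 129Sv called 1, but 0 with the mean of a gene's probe sets, with every probe set on its own or without the 2 knockout arrays of highest Actb ratio, 2 with only the groups compared (all genes called rose from 1058 to 1395) and 5 with array weights (2092). The knockout in B6 called 0, but 1 with low values set to the floor and 3 with array weights (all genes rose from 1005 to 2166). The averaged knockout called 1, but 2 without a filter, with the Actb ratio as a covariate or with the replicate block, and 5 with array weights (all genes rose from 1718 to 3106). The wild type strain comparison called 2, but 4 with the replicate block and 1 with the number before the strain in the titles as a covariate. The knockout strain comparison called 8, but 4 with the filter at log2 6, and 5 with the floor or over members above it on all arrays. The averaged strain comparison called 8, but 5 with that filter or over those members and 13 with array weights (all genes rose from 5057 to 6409). Leaving out 1 array gave 0 to 2 calls for the knockout in 129Sv (2 without 129Sv knockout replicate 3 or B6 wild type replicate 3), 0 for that in B6, 0 to 2 for the averaged knockout (2 without 129Sv knockout replicate 3 or B6 wild type replicate 2), and 0 to 3, 6 to 9 and 8 to 11 for the strain comparisons in wild type, in knockout and averaged. The difference of knockout effects called 0 Hox genes under all alternatives. Under the replicate block, which the check of the numbers did not support as a pairing, the count was 1 for the knockout in 129Sv (Hoxa9 in place of Hoxa3), 0 in B6, 6 for the knockout strain comparison and 9 for the averaged one. Hoxb5 missed the threshold in the knockout strain comparison without the 2 arrays of highest Actb ratio (limma, adjusted p = 0.0561), and Hoxd9 in the averaged one with the number before the strain as a covariate (0.0503). With the number that B6 titles share as a random block, added after the data were seen, the Hoxa3 call in the knockout strain comparison was lost (adjusted p = 0.0503). The causes were not tested. The floor limits what can be said of Hoxa5, Hoxb4, Hoxb5 and Hoxd1.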

Other observations

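The values here are of probe sets outside the comparisons, picked after they were seen, and have no test. A second probe set shared by Hoxd4 and Hoxd3 read 18.3 ± 2.88 (SD, n = 3) in B6 knockout, 10.8 ± 1.80 in B6 wild type, 10.0 ± 1.74 in 129Sv knockout and 11.5 ± 0.75 in 129Sv wild type. Hoxd3os1, an antisense gene at Hoxd3, read 54.9 to 177 in B6 wild type, 42.5 to 166 in B6 knockout, 41.5 to 54.6 in 129Sv knockout and 40.3 to 74.5 in 129Sv wild type, so it spread widely among the B6 replicates as Hoxd3 did. Its second probe set read 22.6 to 83.5 in B6 wild type and 10.4 to 67.9 in B6 knockout, against 18.2 to 48.5 on the 129Sv arrays. Hoxa11os stayed below an intensity of 16 on every array in both of its probe sets, as did Hoxb5os and the probe set shared by Hoxb8 and Hoxb7.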
